A study of Mus musculus with 96 samples.

Results

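CC043 is 1 of the 42 Collaborative Cross strains whose cultured osteoblasts were sequenced here. Collaborative Cross mice are inbred lines derived from crosses of several founder strains, and each strain carries its own fixed mosaic of founder genomes. CC043 had 2 of the 96 samples, called replicates 1 and 2 here, in the order of the sample numbers in their titles, which differ by 2. They were set against the 38 other strains, each strain weighted equally, that had 2 or more libraries, 90 libraries in all. The strain was singled out with results of this very comparison known. The counts of called genes and the differences from the other strains therefore describe CC043 and are given without p-values.

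All groups had the same treatment. Skull caps of pups aged 3 to 5 days were digested, and the cells were grown for 48 h and then differentiated for 10 days with added ascorbic acid and beta-glycerol phosphate, under which bone-forming cells lay down and mineralize matrix. Libraries came from 200 ng of total RNA depleted of ribosomal RNA. The labels give the strain and tissue only: no sex, litter, animal or culture date. Whether the samples of 1 strain were separate animals or cultures is not stated, so the spread between them may be technical.

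Osteoblasts build bone by secreting type I collagen, raising phosphate with alkaline phosphatase and, later, expressing mineral-binding and osteocyte proteins. Wnt signals promote this program, and the secreted inhibitors sclerostin (Sost) and Dkk1 restrain it. Bone morphogenetic proteins (BMPs) drive it through receptors that extracellular antagonists such as noggin keep from their ligands. Beside the bone program, cultured cells run responses to their medium. Low amino acids or stress in the endoplasmic reticulum raise translation of ATF4, a transcription factor that switches on amino acid transporters, tRNA synthetases and Chac1, Trib3 and Ddit3. Type I interferon switches on antiviral genes through a complex that includes IRF9.

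The cells matched their label. Levels are scaled TPM (abundance relative to all transcripts in a library, corrected for transcript length and then for a scaling factor per library). Col1a2, a chain of type I collagen, was at 3693 and 6208 in replicates 1 and 2, against 3330 to 11710 (median 7010) in the other libraries. Alpl, alkaline phosphatase, was at 114 and 166 (others 20.1 to 394, median 175). Sp7, the osteoblast transcription factor osterix, was at 49.3 and 49.0 (others 4.22 to 61.4). The structural RNA share was 63.5% and 64.6%, inside the range of the other libraries (55.6% to 70.0%), and so were the shares of protein-coding and mitochondrial messenger RNA. Depth is not recorded in TPM. Xist was at 9.45 and 9.65 and the Y-linked gene Ddx3y at 0.0271 and 0.0134, a level under 1 that 40 of the 90 other libraries shared.

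Of 15760 genes tested, 4606 (29.2%) were called different in CC043, rank 3 of the 39 strains by this count, after CC038 (4750) and CC030 (4711). A call is a limma result at a false discovery rate of 0.05, adjusted over all strains and genes together. Of these, 2345 genes (14.9%) were higher and 2261 (14.3%) lower, and nothing is read from these shares, because the strain was chosen by them. Without replicate 1 the counts were 997 higher and 1072 lower, and without replicate 2 they were 1606 and 1408. A called difference of at least 2-fold was found for 251 genes on the higher side and 429 on the lower side. Both CC043 libraries lay above all 90 others for 1.22% of genes and below all of them for 1.11%. The CC043 mean was the highest of the 39 strains for 1763 genes (11.2%) and the lowest for 1376 (8.73%).

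The CC043 libraries were close to each other and near several libraries with nearby title numbers. Distance was 1 minus Pearson's r over the log2 values of the tested genes, across genes, which are not independent replicates. It was 0.0167 between the 2 CC043 libraries, and 31 of the 72 other same-strain pairs were closer (median 0.0188). The library nearest to both was that of CC023 with a nearby number, at 0.0336 from replicate 1 and 0.0308 from replicate 2. For replicate 2, those of CC028 and CC008 followed, at 0.0323 and 0.0327, and for replicate 1 those of CC008 (0.0368) and CC005 (0.0376), whose number is distant. The farthest library from both, that of CC030 at 0.0872 and 0.0737, also had a nearby number. The sources used here do not say what the numbers mean.

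**Figure D1:**
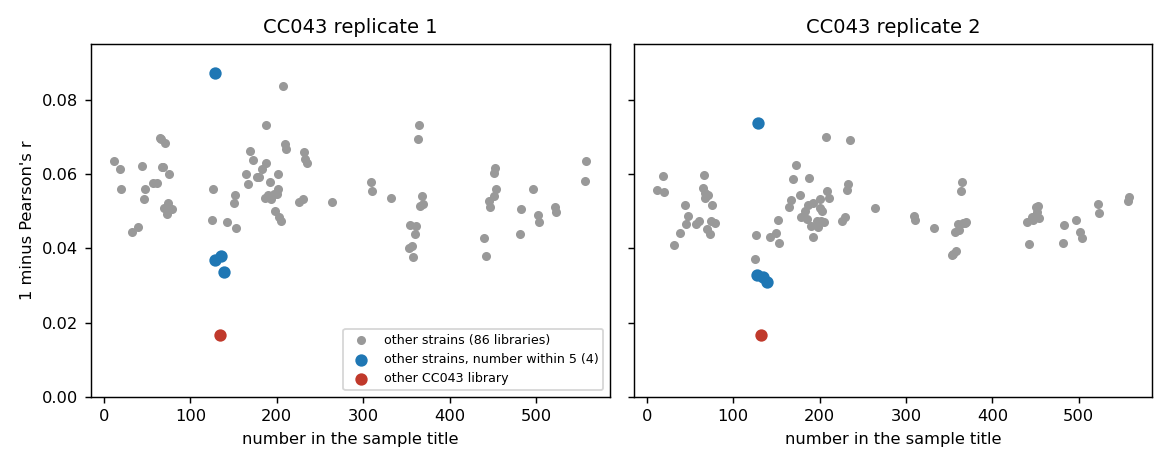
Distance (1 minus Pearson's r over log2 values of the tested genes, vertical axis) of each other library from CC043 replicate 1 (left) and replicate 2 (right), against the number in the sample title. Of the 4 blue libraries, whose numbers lie within 5 of a CC043 number, 3 are among the nearest 5 libraries to each CC043 library, and the other one, of CC030, is the farthest.

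Because both CC043 libraries carry adjacent numbers, a second reference was used beside the other strains: the 4 libraries of other strains whose numbers lie within 5 of a CC043 number (1 each of CC008, CC030, CC028 and CC023), called the nearby-numbered libraries below. This reference was chosen after the data were seen. Against it 2179 genes (13.8%) were called, 846 higher (5.37%) and 1333 lower (8.46%). The CC030 library stood apart by its macrophage genes, described below. With it left out of the reference, 1344 genes (8.53%) were called: 617 (3.91%) higher and 727 (4.61%) lower. Against all 10 libraries of other strains numbered within 20, 1395 genes (8.85%) were higher and 1560 (9.9%) lower. All these comparisons use the same CC043 libraries and are not independent, and within CC043 strain and title number cannot be told apart. Counts of list members called are to be read beside the shares over all genes tested. These were 14.9% higher and 14.3% lower against the other strains, and 5.37% and 8.46% against the nearby-numbered libraries. With CC030 left out of the latter they were 3.91% and 4.61%. Leaving out a CC043 replicate lowered the calls over all genes too, so list counts without a replicate are not to be read against these shares.

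**Figure D2:**
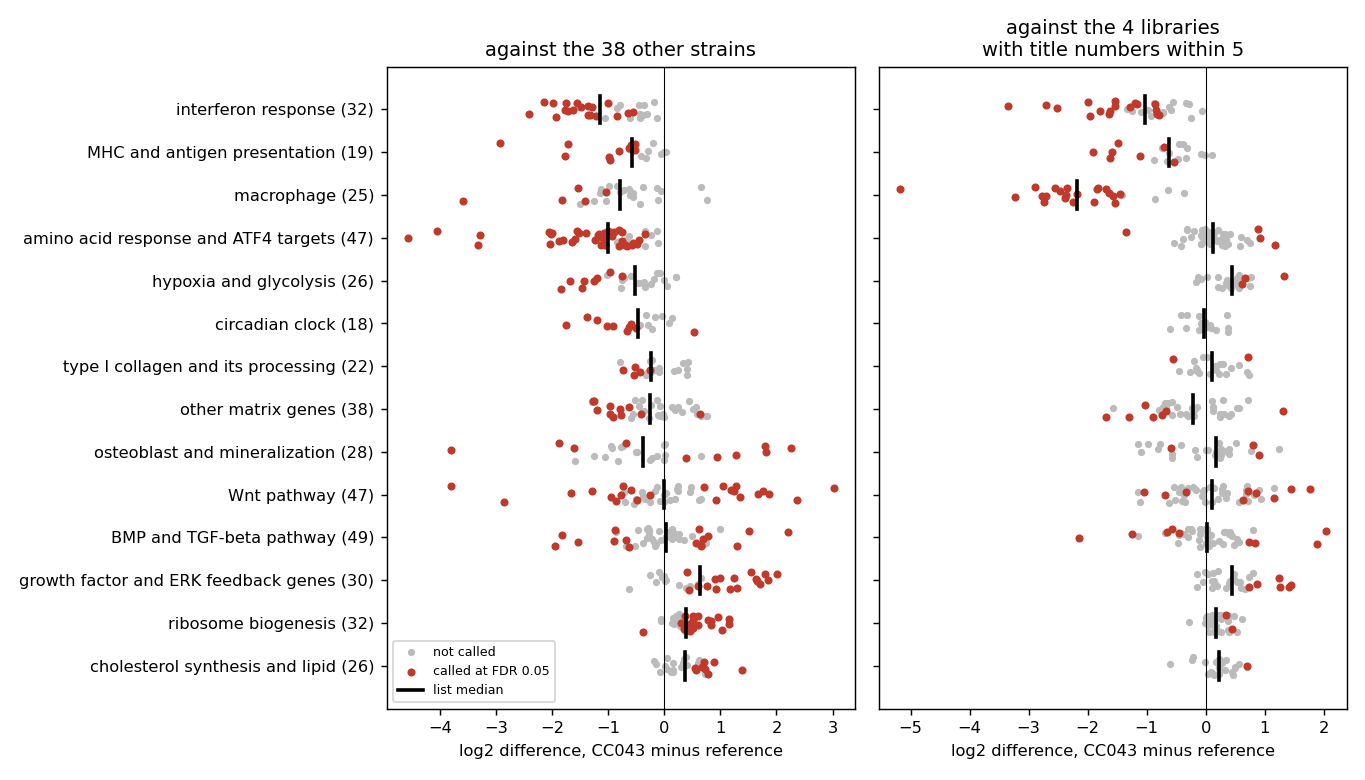
Log2 difference of each measured member of 14 gene lists (number of members in brackets), CC043 minus the mean of the 38 other strains (left) and minus the mean of the 4 nearby-numbered libraries (right). Red points were called at a false discovery rate of 0.05 and black bars are list medians. The amino acid response list lies mostly below 0 on the left (median -1.004) and around 0 on the right (0.13), while the interferon list lies below 0 in both (-1.14 and -1.03).

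Genes of the amino acid response were low in CC043 against the other strains. Of 47 measured genes of a list of ATF4 targets, chosen after the data were seen, 38 were called lower than in the other strains and none higher, with a median log2 difference of -1.004 beside -0.03 over all genes tested. Trib3, a pseudokinase that ATF4 induces, was at 2.15 and 1.22 scaled TPM in CC043 and at 1.23 to 127.7 (median 64.3) in the other libraries. The log2 difference was -4.57 ± 0.74 (SE). This and all differences below are on log2(scaled TPM + 0.5), with 2 libraries against 38 strain means unless another reference is named. The SE rests on the spread of libraries within strains, shared over strains, and holds no spread between strains. Chac1, a glutathione-degrading enzyme, was at 1.22 and 0.803 (others 0.571 to 87.7, median 29.2). Both CC043 libraries were thus near the bottom of the range, but not alone there.

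Other members covered each arm of the pathway. Ddit3, the stress transcription factor CHOP, was at 10.3 and 7.05 (others 7.69 to 267, median 98.1; -3.28 ± 0.53). Atf4 itself was at 56.6 and 49.2, below all 90 other libraries (59.7 to 349; -1.88 ± 0.25). Atf3, a related stress factor, was also below all of them, at 1.15 and 1.76 (2.33 to 18.99). Among transporters, Slc7a5, which takes up large neutral amino acids, was at 9.51 and 10.3 (median of the others 33.3), and the cystine carrier Slc7a11 at 0.391 and 0.343 (median 1.47). Among enzymes, Mthfd2 of mitochondrial folate metabolism was at 13.02 and 10.9 (median 55.5), and Asns, asparagine synthetase, at 61.02 and 41.1 (median 97.7). The alanyl-tRNA synthetase gene Aars was at 28.2 and 20.5 (median 55.1). Members that were not called included the serine synthesis genes Psat1 (-0.34 ± 0.30) and Phgdh (-0.68). The chaperone genes Hspa5, Calr and Hsp90b1 were not called either. Hspa5, the main chaperone of the endoplasmic reticulum, was at 543 and 491 (median of the others 499), and Calr and Hsp90b1 differed by -0.06 and 0.00. Of 23 endoplasmic reticulum genes, 8 were called lower, among them Trib3, Chac1, Ddit3, Atf4 and Asns, which both lists hold, and also Herpud1, Dnajb9 and Sel1l.

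The promoters of called-lower members are shown because several hold a short motif that ATF4 and its C/EBP partners are known to bind. The letters TGATGNAA, searched on both strands (TTNCATCA on the other) in the 250 bases before the RefSeq start (GRCm38.p6), were found in 9 of the 39 list genes with a promoter in the table (23.1%), beside 954 of all 27025 promoters (3.53%) and 2.00% of those of tested genes. Of the 31 list genes called lower that had a promoter in the table, 8 held it: Chac1, Atf3, Nupr1, Slc7a11, Aars, Asns, Gars and Tars. The 6 with the largest differences follow, 5′ to 3′ on the gene's strand, each with 30 bases on either side of the outermost match where these lie before the start, and with the match in capitals. A match is a description of the letters, not a measured site.
Chac1 (chr2:119351019-119351086, plus strand): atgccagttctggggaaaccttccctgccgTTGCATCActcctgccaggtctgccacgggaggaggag
Atf3 (chr1:191183406-191183473, minus strand): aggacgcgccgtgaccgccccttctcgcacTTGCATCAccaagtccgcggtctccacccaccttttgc
Nupr1 (chr7:126625543-126625610, minus strand): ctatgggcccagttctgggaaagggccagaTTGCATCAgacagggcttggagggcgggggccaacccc
Slc7a11 (chr3:50443623-50443709, minus strand): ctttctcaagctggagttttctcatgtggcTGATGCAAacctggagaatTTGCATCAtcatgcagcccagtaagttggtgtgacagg
Aars (chr8:111033700-111033767, plus strand): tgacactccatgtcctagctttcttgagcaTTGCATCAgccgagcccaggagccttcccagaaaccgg
Asns (chr6:7693210-7693262, minus strand): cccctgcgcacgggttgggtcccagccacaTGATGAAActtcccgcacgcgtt
The match begins 23 bases before the start in Asns and farther from it in the others. Slc7a11 holds 2 matches, 1 on each strand, and the genes whose sequences are shown differed from the other strains by -4.05 (Chac1) to -0.81 (Asns).

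The nearby-numbered libraries had the same low levels. Against them only Atf3 of the 47 genes was called lower and 3 were called higher, and the median was 0.13. With CC030 left out Atf3 was not called (-0.76 ± 0.34), so that no member was lower, and 2 were higher. Trib3 was at 1.23 to 2.38 in the 4 libraries, a difference of -0.04 ± 0.60 from CC043. Ddit3 was at 7.69 to 18.0 there. Of the members called higher than in these libraries, Psat1 was at 30.5 and 27.2 in CC043 and 9.09 to 15.0 in the 4 libraries. Over all 6 libraries of other strains numbered within 7 of a CC043 library, Trib3 was at 1.23 to 5.07, and over the 4 whose numbers were 9 to 19 away it was at 58.5 to 75.5. In the 5 libraries of the same 4 strains with numbers more than 20 away from CC043, it was at 18.0 to 60.5. In those 4 strains the low level was thus seen at the nearby numbers and not at the distant ones, and CC043 has no library at another number.

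Txnip, an arrestin that binds thioredoxin and limits glucose uptake, had the largest called rise of any protein-coding gene above 5 scaled TPM. It was at 81.5 and 73.3 in CC043, and at 0.621 to 169.1 (median 3.46) in the other libraries (3.93 ± 0.77). The libraries above CC043 were the 6 numbered within 7 of it, at 106 to 169.1, and no other library was above it. The 4 libraries 9 to 19 numbers away were at 1.60 to 5.14, and the 5 of the same strains at distant numbers at 4.53 to 21.1. Against the nearby-numbered libraries Txnip was lower in CC043 by estimate and not called (-0.74 ± 0.73). Its paralog Arrdc4, which responds to glucose through the same transcription factors, was at 7.35 and 6.19, against a median of 1.57 in the other libraries and 6.29 to 9.03 in the nearby-numbered ones.

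Enzymes that add and remove O-linked N-acetylglucosamine, a sugar mark on proteins inside the cell, differed in opposite directions. Ogt, which adds it, was at 8.63 and 9.78, below all 90 other libraries (13.1 to 42.9; -1.46 ± 0.17), and remained called lower against the nearby-numbered libraries (13.1 to 17.5; -0.60 ± 0.16). Mgea5, which removes it, was at 42.1 and 31.1, where the other libraries reached 32.3 (median 16.3; 1.14 ± 0.19). It was not called against the nearby-numbered ones (0.38 ± 0.15).

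**Figure D3:**
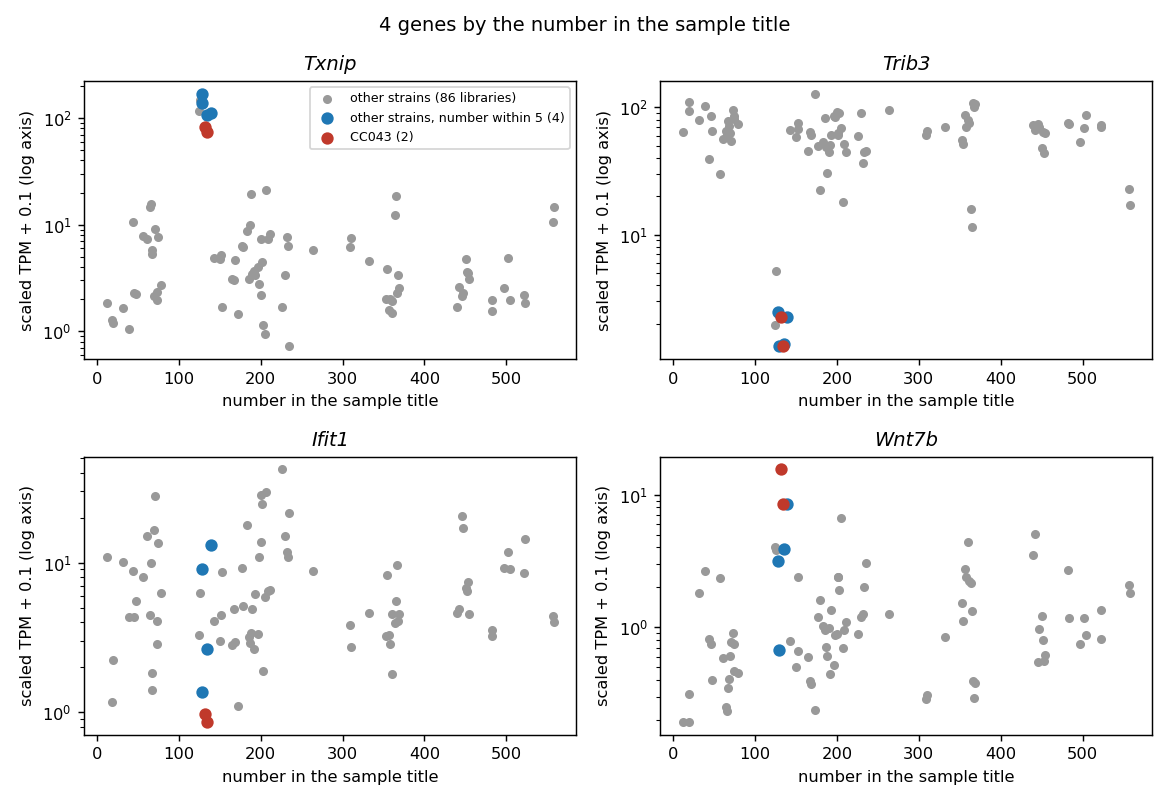
Scaled TPM plus 0.1 (log axis) of Txnip, Trib3, Ifit1 and Wnt7b in each library, against the number in the sample title: CC043 in red, the 4 libraries numbered within 5 of it in blue, the other 86 libraries in grey. Txnip is high and Trib3 low in red and blue points alike. Both CC043 libraries hold the lowest values of Ifit1 and the highest of Wnt7b. For Wnt7b the blue point of CC023 (8.42) lies next to the lower red point (8.44).

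Genes of low oxygen and of the circadian clock behaved like the amino acid response. Of 26 hypoxia and glycolysis genes, among them a second, low-level locus named Aldoa, 8 were called lower and none higher than in the other strains (median -0.53), and none was lower and 3 were higher against the nearby-numbered libraries (median 0.45), or 0 without CC030 (median 0.43). Slc2a1, the glucose transporter GLUT1, was at 13.7 and 16.1 (others 7.46 to 137, median 42.4; nearby-numbered 7.46 to 13.1). Bnip3, a mitophagy receptor induced by low oxygen, was at 55.2 and 69.7 (median of the others 206; nearby-numbered 45.7 to 61.5). The 8 calls rested on having both libraries, with 0 left without replicate 1 and 1 without replicate 2, while the median stayed at -0.56 and -0.50. Of 18 clock genes, 9 were called lower and 1 higher (3 and 6 lower without replicate 1 or 2), and none differed by call from the nearby-numbered libraries. Dbp, a clock output factor, was at 2.20 and 2.13 (others 1.02 to 17.7, median 8.96), and Per3 at 1.62 and 1.93 (median 4.99). Clock was higher, at 8.77 and 8.48 (median 5.62).

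Interferon genes were low in CC043 against both references. Of 32 interferon-response genes, 19 were called lower and none higher than in the other strains, with a median of -1.14 (14 without replicate 2 and 10 without replicate 1), and all 32 estimates were below 0. Ifit1, which binds foreign RNA, was at 0.872 and 0.758 scaled TPM, below all 90 other libraries (0.993 to 41.9, median 5.21; -2.41 ± 0.50). Isg15, a ubiquitin-like modifier, was at 1.60 and 2.70 (others 2.53 to 76.8, median 9.24; -2.14 ± 0.44), the lowest strain mean. The regulators were low as well. Irf7, which amplifies interferon production, was at 0.928 and 1.42 (others 1.33 to 31.0, median 4.14). Irf9, the DNA-binding part of the interferon-activated complex, was at 5.73 and 4.99, below all other libraries (6.06 to 34.6). Mx1, an antiviral GTPase, was at 0.0188 and 0 (others 0 to 24.8, median 0.388).

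Against the 4 nearby-numbered libraries, 17 of the 32 genes were called lower, with a median of -1.03. These libraries did not all stand above CC043 by much: Ifit1 was at 1.27 in that of CC008, 2.56 in that of CC028, 8.92 in that of CC030 and 13.1 in that of CC023. Without the CC030 library, 5 of the 32 were called lower, and the median was -0.81. The summed level of the list was 74.96 and 89.3 scaled TPM in CC043, 90.3 to 459 in the nearby-numbered libraries and 63.9 to 717 (median 190) over all other libraries. By this sum CC043 was at the low end of a range that other libraries share.

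The interferon genes are also shown with their promoter letters, because a motif that IRF factors bind is known from this gene class. The letters GAAA, any 2 bases and GAAA (TTTC, any 2 bases and TTTC on the other strand), searched in the same windows, were found in 12 of the 23 list genes with a promoter in the table (52.2%), beside 821 of 27025 promoters (3.04%) and 2.70% of those of tested genes. Of the 12 members called lower that had a promoter in the table, 5 held it: Ifit1, Isg15, Ifit3, Oas1a and Bst2. This was a smaller share than over the 23 list genes, so the motif was not more frequent among the lowered members. Their stretches are printed as above, with the matches in capitals.
Ifit1 (chr19:34640755-34640843, plus strand): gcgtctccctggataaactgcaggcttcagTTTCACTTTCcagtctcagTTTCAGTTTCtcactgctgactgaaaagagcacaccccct
Isg15 (chr4:156200845-156200926, minus strand): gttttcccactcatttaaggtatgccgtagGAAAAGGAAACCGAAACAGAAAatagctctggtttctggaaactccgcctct
Ifit3 (chr19:34583343-34583446, plus strand): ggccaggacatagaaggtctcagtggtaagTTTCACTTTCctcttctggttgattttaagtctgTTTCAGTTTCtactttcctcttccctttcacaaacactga
Oas1a (chr5:120907526-120907575, minus strand): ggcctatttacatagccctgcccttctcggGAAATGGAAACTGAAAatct
Bst2 (chr8:71537557-71537632, minus strand): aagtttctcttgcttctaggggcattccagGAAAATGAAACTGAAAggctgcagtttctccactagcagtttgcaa
Isg15 holds 3 matches that overlap each other, and Oas1a and Bst2 hold 2 overlapping matches each. Ifit1 and Ifit3 hold 2 separate matches each, all on the other strand. The log2 differences of these 5 genes ran from -2.41 (Ifit1) to -1.33 (Bst2), and no match is a statement about which factor was bound in these cells.

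Antigen presentation genes, many of which interferon induces, were low too. Of 19 measured, 10 were called lower and none higher (median -0.57), with 5 lower without replicate 1 and 11 without replicate 2. With the nearby-numbered libraries as the reference, 7 were lower (median -0.62), or 6 without CC030. B2m, the light chain of MHC class I molecules, was at 252 and 294, below all 90 other libraries (314 to 804; -0.81 ± 0.12). H2-K1, a classical class I heavy chain, was at 27.7 and 37.1 (others 15.0 to 151, median 71.3). H2-T23, a non-classical one, was at 4.41 and 6.25 (others 4.43 to 50.8, median 20.2; -1.78 ± 0.26). H2-T22 was at 0.769 and 0.715, below all others (0.815 to 32.9), but it shares 34.5% of its 50-base stretches with H2-T10, and reads may have been divided between them. Summed over that pair, the difference was -1.48.

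Macrophages, which such cultures hold in varying number, also express interferon-response and antigen presentation genes, so their markers are given beside these groups. Of 25 macrophage genes, 5 were called lower and none higher than in the other strains (1 without replicate 1, 6 without replicate 2), with a median of -0.78, and no member was at 0 in both CC043 libraries. Their summed level was 316 and 570 scaled TPM, against 52.0 to 7371 (median 597) in the other libraries and 832 to 7371 in the nearby-numbered ones, where the CC030 library held the highest value of all. Csf1r, the CSF1 receptor on which macrophages depend, was at 4.57 and 9.24 (median of the others 7.29), and Lyz2 at 204.6 and 345 (median 235.4). C1qc was at 4.78 and 13.4 (median 24.7) and Cd68 at 4.88 and 9.002 (median 15.7). Set against the nearby-numbered libraries, 21 of 25 were called lower (median -2.18), and 12 without CC030 (median -1.46). In these bulk samples, fewer cells of a type and less RNA per cell cannot be told apart, and the part of macrophages in the interferon and antigen presentation differences was not tested.

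1 macrophage gene went beyond the rest of the list. Ms4a7, a membrane protein of tissue macrophages, was at 0.379 and 0.434 in CC043, below all 90 other libraries (0.548 to 162, median 11.1, difference -3.58 ± 0.43), and at 11.6 to 162 in the nearby-numbered ones. The next strain, CC010, was almost as low, at 0.573 and 0.548, so a level this low was not particular to CC043. Csf1r and Lyz2 differed from the other strains by -0.12 and -0.05 in the CC043 libraries. Trem2, a lipid receptor of macrophages, was at 2.03 and 5.02 (median of the others 12.0), and Fcrls at 0.923 and 2.16 (median 10.0). Hpgds, prostaglandin D synthase, was at 0.167 and 0.261 (0.197 to 23.5, median 2.58), and the blood-lineage factor Lmo2 at 0.329 and 0.284 (median 3.78). Hpgds, Lmo2, Trem2, Fcrls and Ms4a7 were all called lower against both references. These were picked after their values were seen, as genes with the largest such differences.

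**Figure D4:**
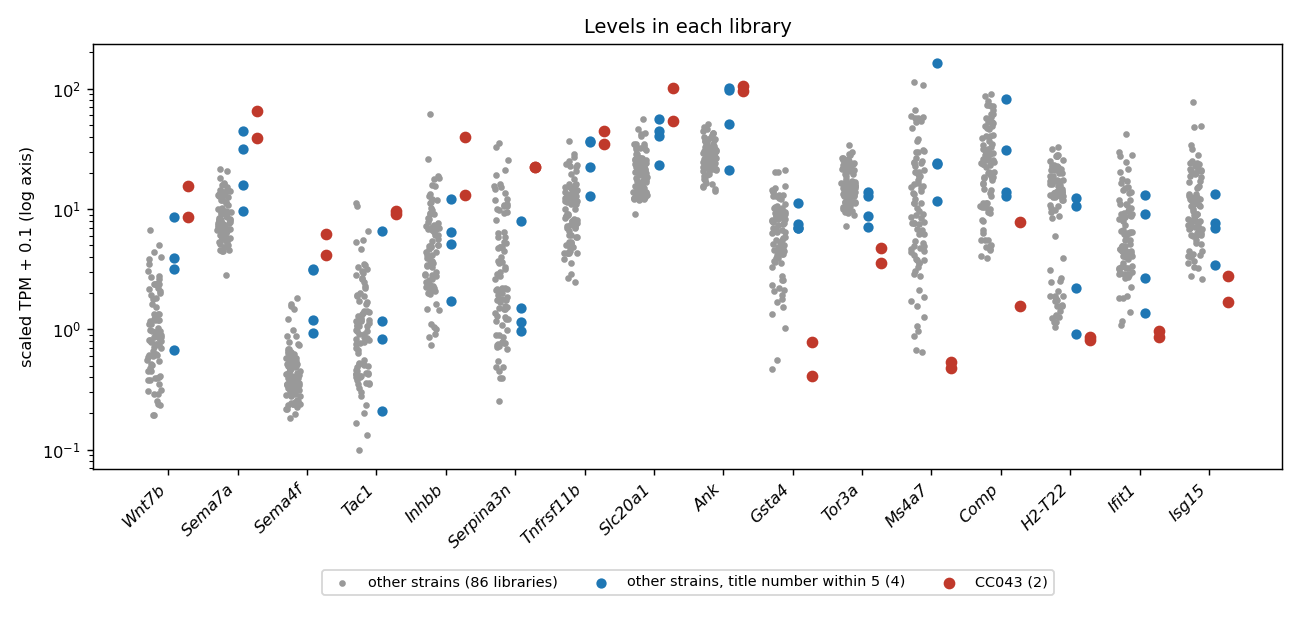
Scaled TPM plus 0.1 (log axis) of 16 genes in the 2 CC043 libraries (red), the 4 nearby-numbered libraries (blue) and the other 86 libraries (grey, spread sideways for sight only). Both red points lie above all grey points for Wnt7b, Sema7a, Sema4f and Ank, and below all of them for Tor3a, Ms4a7, H2-T22 and Ifit1. Blue points reach or approach the red ones for Ank, Sema7a and Wnt7b.

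Genes of the bone program were called in both directions, in numbers near the shares over all genes (14.9% higher, 14.3% lower). Of 28 osteoblast and mineralization genes, 6 were higher and 4 lower (3 and 3 without replicate 1, 3 and 4 without replicate 2), with a median of -0.37. Of the 6 higher genes, 4 handle phosphate or pyrophosphate, whereas Alpl, given above, was not called. How many such genes the list holds was not counted, so nothing is read from these 4 as a group. Ank, which exports pyrophosphate, an inhibitor of mineral, was at 105 and 96.3 (others 14.0 to 102, median 27.7; 1.80 ± 0.32). Slc20a1, a phosphate importer, was at 102 and 53.8 (others 8.95 to 56.1, median 19.9; 1.82 ± 0.26). Enpp1, which makes pyrophosphate, was at 40.0 and 32.9 (median 17.5; 0.93 ± 0.31), and the second importer Slc20a2 at 5.75 and 5.33 (median 4.05). Of the mineral-binding proteins, osteopontin (Spp1) was at 7307 and 4411 (median 2223; 1.28 ± 0.44) and Dmp1, an early osteocyte protein, at 73.5 and 192.1 (median 23.7; 2.25 ± 0.63).

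The late osteocyte gene Sost went the other way, at 0.0124 and 0.338 scaled TPM (others 0 to 123, median 9.66; -3.80 ± 0.80). Sparc, an abundant calcium-binding matrix protein, was at 2046 and 2759 (others 2310 to 5399; -0.68 ± 0.12), the lowest strain mean. Osteocalcin (Bglap, 146 and 278, median of the others 797; -1.58 ± 0.70) and bone sialoprotein (Ibsp, 845 and 936, median 1643) were not called, and neither was Runx2, the master regulator of the lineage, at 12.6 and 13.3 (median 13.5). Against the nearby-numbered libraries Ank and Slc20a1 were called higher (0.81 ± 0.26 and 0.91 ± 0.27) and Sparc lower (-0.58 ± 0.15). With CC030 left out, Ank was not called (0.33 ± 0.27), and none of the 28 genes was called higher. Dmp1 was at 165.1 in the nearby-numbered library of CC008, 3.94 in CC030, 307 in CC028 and 210 in CC023, so a high level was not particular to CC043 there. That CC030 library held the lowest level of all others for Alpl (20.1) and Spp1 (226.5).

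Matrix genes were lower mainly in replicate 1. Of 38 matrix genes other than type I collagen, 10 were called lower and 1 higher. Without replicate 1 that fell to 1 lower, and without replicate 2 it was 14. The nearby-numbered libraries as reference gave 1 higher and 6 lower, or 1 and 3 without CC030. Thbs1, thrombospondin, was at 68.6 and 117 (others 73.2 to 919, median 217; -1.26 ± 0.28). Ogn, a small leucine-rich proteoglycan, was at 67.4 and 110 (median 208), and Aspn, another, at 103 and 153.5 (median 248). Col6a3 was the member called higher, at 205.3 and 263 (median 150). Of 22 genes for type I collagen and its processing, 5 were lower, led by Tmem38b, an ion channel needed for collagen folding, at 1.38 and 1.38 (median 2.61). The collagen list had 2 lower without replicate 1, and 1 higher and 1 lower against the nearby-numbered libraries, where its median was 0.11 beside -0.23 in the main comparison. Comp, a cartilage and tendon matrix protein, was at 1.46 and 7.67 (others 3.83 to 89.4, median 23.8; -2.52 ± 0.56) and at 12.7 to 81.6 in the nearby-numbered libraries (-2.72). Most cartilage genes were not called: of 23, 2 were lower and 1 higher (0 lower without replicate 1, 5 without replicate 2, and 4 lower against the nearby-numbered libraries), and Sox9, their regulator, was at 0.711 and 1.46 (median 1.03).

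Wnt genes changed in both directions. Of 47 measured, 12 were called higher and 11 lower, with a median of -0.01, beside 14.9% higher and 14.3% lower over all genes. Among ligands, Wnt7b, which promotes bone formation, was at 15.4 and 8.44 scaled TPM, above all 90 others (0.0932 to 8.42, median 0.798; 3.02 ± 0.48). Wnt2 was at 2.91 and 3.604 (median 0.447) and Wnt2b at 1.48 and 1.19 (median 0.215). Wnt5a was at 10.7 in both (median 6.58), while Wnt5b was called lower, at 3.45 and 5.51 (median 6.83). Of the receptors, Fzd1 was higher, at 74.3 and 65.3 (median 36.1), and Fzd4, Fzd8 and Lrp6 lower, with differences of -0.77, -0.74 and -0.25.

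Among the 12 higher genes were some that the pathway itself induces. Induced genes among the 11 lower ones were not counted, so the activity of the pathway is not read from these. Axin2, the usual readout of beta-catenin activity, was at 5.14 and 5.65, above all 90 others (0.218 to 4.55, median 1.44; 1.66 ± 0.34). Notum, which inactivates Wnt proteins, was at 4.12 and 4.03 (median 0.769; 1.76 ± 0.37), and the transcription factor Lef1 at 1.52 and 1.49 (median 0.319). Apcdd1, a Wnt inhibitor and target, was at 11.4 and 16.1 (others 0.563 to 12.3, median 2.12; 2.37 ± 0.41). The secreted inhibitors Sost and Dkk1 were on the lower side. Dkk1 was at 0.694 and 2.17 (others 0.155 to 71.6, median 14.8; -2.85 ± 0.67). The R-spondin gene Rspo3, an amplifier of the pathway, was also lower, at 2.94 and 5.37 (median 14.6). Without replicate 1 the calls were 9 higher and 2 lower, and without replicate 2 they were 10 and 6.

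Against the nearby-numbered libraries 6 Wnt genes were higher and 3 lower, or 3 and 1 without CC030. Wnt7b was at 3.06 in CC008, 0.570 in CC030, 3.81 in CC028 and 8.42 in CC023, and CC043 was called higher (1.78 ± 0.51) but not with CC030 left out (1.21 ± 0.54). In the 5 libraries of these strains numbered more than 20 away from CC043, Wnt7b was at 0.277 to 1.10. Axin2 was not called against the nearby-numbered libraries (0.81 ± 0.41), and neither was Apcdd1 (1.16 ± 0.47, or 0.88 ± 0.49 without CC030), which was at 12.3 in CC023. Neither Sost nor Dkk1 was called (-1.14 ± 0.96 and -1.12 ± 0.76): Dkk1 was at 0.180 in CC030 and 3.56 to 9.98 in the other 3 of those libraries. For Axin2, Apcdd1, Sost and Dkk1 the estimates thus kept their sign and lost size.

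Genes of the BMP and activin family were called about as often as all genes (14.9% higher, 14.3% lower). Of 49 genes, 9 were higher and 7 lower (2 and 3 without replicate 1, 7 and 5 without replicate 2), with a median of 0.03, and 4 were higher and 5 lower against the nearby-numbered libraries. The activin subunits were higher: Inhbb was at 39.2 and 12.9 (others 0.640 to 62.0, median 4.79; 2.20 ± 0.47) and Inhba at 37.3 and 29.7 (others 2.08 to 202.1, median 11.4; 1.51 ± 0.33). Fst, which traps activin, was lower, at 8.94 and 7.04 (median 14.5; -0.87 ± 0.24). The BMP antagonist genes Nog, Chrd and Chrdl1 were called lower. Nog was at 1.45 and 3.55 (median 8.14), Chrd at 0.696 and 1.39 (median 2.40) and Chrdl1 at 1.43 and 6.61 (median 14.3). They are named as called members, and nothing is read from them about BMP antagonists as a class. Bmp4 itself was lower, at 14.2 and 14.1 (median 23.3; -0.69 ± 0.16). Inhba and Inhbb were called higher against the nearby-numbered libraries (1.89 ± 0.41 and 2.04 ± 0.56), and Fst, Chrd, Chrdl1 and Bmp4 lower. Without CC030 Inhba was still called (2.17 ± 0.42) and Inhbb was not (1.57 ± 0.60).

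Growth factor and ERK feedback genes were higher. ERK is the kinase at the end of the pathway that growth factors switch on, and its targets include brakes on the pathway. Of 30 genes of this list, chosen after the data were seen, 17 were called higher and none lower (median 0.63; 9 without replicate 1 and 13 without replicate 2). The brakes were among them. Errfi1, an inhibitor of the EGF receptor, was at 127.8 and 58.9 (others 10.9 to 111, median 18.2; 2.01 ± 0.36), and Dusp6, an ERK phosphatase, at 20.3 and 19.6 (median 9.34; 1.00 ± 0.23). Fosl1, a transcription factor that ERK stabilizes, was at 6.79 and 6.11 (median 1.73; 1.66 ± 0.31), and Etv4 at 4.83 and 3.604 (median 1.24). The growth-associated chromatin protein Hmga1 was at 53.2 and 28.9 (others 3.21 to 29.5, median 10.0). Against the nearby-numbered libraries 6 were higher (median 0.44), or 5 without CC030, among the 6 being Fosl1, Etv4 and Hmga1. Of the fibroblast growth factors, Fgf1 and Fgf2 were called higher than in the other strains (1.54 and 1.12) and Fgf7 and Fgf9 lower (-0.73 and -1.17).

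Of the genes by which osteoblasts steer bone-resorbing osteoclasts, 4 of 10 were called higher and 1 lower. Without replicate 1, without replicate 2 and against the nearby-numbered libraries, the list each time had 1 higher and 0 lower. Tnfrsf11b, osteoprotegerin, the decoy that blocks osteoclast formation, was at 34.9 and 44.1 (others 2.38 to 36.9, median 10.4; 1.98 ± 0.38). Its target Tnfsf11, RANKL, was at 12.0 and 4.98 (median 3.03) and was not called (1.02 ± 0.45). Csf1, the growth factor for macrophages and osteoclasts, was at 53.5 and 50.1 (median 38.2; 0.42 ± 0.13). Tnfrsf11b was also at 36.9 in CC008, 36.1 in CC023, 22.4 in CC028 and 12.7 in CC030, and the difference from these was not called (0.65 ± 0.45).

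2 semaphorins, guidance proteins at the cell surface, had among the largest gaps to the next strain of any gene. Sema7a was at 65.5 and 38.9 (others 2.71 to 44.01, median 7.98; 2.45 ± 0.39), and the next strain was CC023. Sema4f was at 6.08 and 4.08, above all 90 others (0.0821 to 3.04, median 0.340; 2.62 ± 0.30). The nearby-numbered libraries held the highest values among the others for both genes: Sema7a was at 44.01 in CC028 and 31.1 in CC023, and Sema4f at 3.00 and 3.04. In the 5 libraries of the nearby-numbered strains at distant numbers, Sema7a was at 4.34 to 11.4 and Sema4f at 0.096 to 0.648. CC043 was called higher than the 4 nearby-numbered libraries in both cases (1.22 ± 0.39 and 1.27 ± 0.29), and with CC030 left out for Sema4f (1.02 ± 0.31) but not Sema7a (0.85 ± 0.41). Of 29 semaphorin and plexin genes, a list made after these values were seen, 4 were higher and 5 lower than in the other strains, near the shares over all genes (14.9% and 14.3%). The 5 lower became 0 without replicate 1 and 3 without replicate 2, and against the nearby-numbered libraries 2 were higher and 1 lower. Foxs1, a forkhead factor, was at 24.1 and 18.9 (others 1.82 to 13.6; 1.81 ± 0.26). Baalc (7.32 and 8.57, others up to 8.37) and the retinoic acid binding protein gene Crabp2 (52.1 and 47.2, others up to 49.2) were likewise highest in the CC043 mean. Foxs1 was also called higher than the nearby-numbered libraries (0.85 ± 0.28), whereas Baalc (0.84 ± 0.36) and Crabp2 (0.93 ± 0.50) were not called.

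Biosynthetic genes were modestly higher than in the other strains. Of 32 ribosome biogenesis genes, a list chosen after the data were seen, 18 were called higher and 1 lower (median 0.39). Without replicate 1, 4 were higher, and without replicate 2, 18. Rrp12 was at 10.0 and 8.51 (others 1.84 to 9.38, median 3.78; 1.16 ± 0.26). Of 26 cholesterol and lipid synthesis genes, 8 were higher and none lower (median 0.36; 7 without replicate 1 and 1 without replicate 2). Fasn, fatty acid synthase, was among them, with a log2 difference of 0.88. Against the nearby-numbered libraries 1 gene of the lipid list and 2 of the ribosome biogenesis list were called higher, beside 5.37% of all genes. With CC030 left out it was 0 in either list.

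Some genes kept large differences against both references and belonged to no group above. Serpina3n, a secreted protease inhibitor, was at 22.4 and 22.1 (others 0.155 to 35.0, median 2.09; 2.83 ± 0.43), and at 0.877 to 7.92 in the nearby-numbered libraries (3.23 ± 0.53). Tac1, the substance P precursor, was at 9.01 and 9.52 (others 0 to 11.2, median 0.871; 2.77 ± 0.42; nearby-numbered 2.53 ± 0.50). The cell division genes Pttg1 (14.4 and 15.0, median 3.95) and Hjurp (23.7 and 30.3, median 13.4) were higher, although only 3 of 26 proliferation genes were called higher (0 without replicate 1, 1 without replicate 2) and 1 lower. Ifi202b, a nucleic acid sensor of the interferon-inducible family, was high while the interferon list was low, at 104 and 81.1 (others 0 to 100, median 24.8; 2.94 ± 0.23). The nearby-numbered libraries split into 82.6 and 93.7 (CC030 and CC028) and 0 and 0.130 (CC008 and CC023).

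On the lower side, Gsta4, which detoxifies lipid peroxidation products, was at 0.308 and 0.691 (others 0.364 to 20.9, median 6.86; -2.67 ± 0.26; nearby-numbered 6.88 to 11.2, -3.10 ± 0.32). Tor3a, an interferon-responsive torsin ATPase of the endoplasmic reticulum, was at 3.47 and 4.61, below all 90 others (6.99 to 33.6; -1.86 ± 0.17; nearby-numbered -1.25 ± 0.19). Cldn34c1, a claudin, was at 0.00770 and 0.0340 (others 0 to 2.60, median 1.21), and Pgbd1, derived from a transposase, at 0.0290 and 0.0284 (others 0 to 3.06, median 0.994). These levels were not particular to CC043: 3 other libraries were below both CC043 libraries for Cldn34c1 and 5 for Pgbd1. The nearby-numbered library of CC028 was at 0.0193 for Pgbd1. Gsta4, Tor3a, Cldn34c1 and Pgbd1 were still called lower with CC030 left out of the reference. Il1rl1, the interleukin-33 receptor, was among the largest rises against the other strains (47.9 and 17.0, median 1.90; 3.53 ± 0.57) but was not called against the nearby-numbered ones (1.59 ± 0.66).

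Several of the largest differences are uncertain because reads could have been divided between sequences that are alike, although for some of these genes likeness was not shown. Rpl34 (48.2 and 40.2, others 20.9 to 1570), Rpl26 (129 and 123, others 113 to 1946) and Rps25 (9.68 and 7.68, others 5.67 to 1222) encode ribosomal proteins. They share 7.78%, 22.7% and 12.0% of their 50-base stretches with other genes, under the 25% mark used here. Each ran opposite to a transcript that the annotation used here does not hold (Pearson's r across 42 strain means of -0.92, -0.92 and -0.94). That transcript was picked as the one with the lowest r, and its sequence was not compared. The same search gave -0.78 for Trib3. Atp5g2, of ATP synthase, also ran opposite to such a transcript (89.9 and 82.9, others 0 to 154, r of -0.89). It shares 38.3% of its stretches with Gm10175, and summed with that gene the difference of 3.69 became 3.49. Tpm3-rs7 (39.6 and 36.5, others 0.0227 to 37.99) shares 69.4% of its 50-base stretches with Tpm3, and summed with it the difference of 3.18 became 0.49. Gm4737 summed with its source gene Ahcy and Gm9826 differed by 0.36, and Gstp2 with Gstp1 by 0.47. Gm13305 shares stretches with the interleukin-11 receptor genes (summed -1.05) and Gm45799 with Dnhd1 (summed 1.39). The histone genes Hist1h4n and Hist2h3b are near-copies of others, with summed differences of -1.37 and -1.75. Gm10800, which has 27.2% shared stretches, was at 11.3 and 122 in the 2 replicates and is not read further.

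Most called protein-coding genes had no neighbour called in the same direction. Taking the tested ones in the order of the reference annotation, 2826 calls stood alone, and of the runs, pairs were the most frequent, with 114 runs of 3, 23 of 4, 3 of 5 and 1 of 6. Of the 13511 protein-coding genes tested, 2212 were called higher and 2115 lower. How many runs such counts of calls would give by themselves was not computed. The longest run lay on chromosome 11 and was higher: Igf2bp1 (0.61), Snf8 (0.63), Ube2z (0.32), Atp5g1 (0.54), Snx11 (1.02) and Cbx1 (0.21). The runs of 5 were higher too, from Zfp638 to Spr on chromosome 6, Dok4 to Kifc3 on chromosome 8, and Nfyb to D10Wsu102e on chromosome 10. The last of these holds Txnrd1, thioredoxin reductase, with a log2 difference of 1.28 ± 0.21. Against the nearby-numbered libraries, Atp5g1, Cbx1, Spr, Kifc3, Txnrd1 and D10Wsu102e were called higher in these runs and no other member was.

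Of 4 genes the study had named for bone, 3 were called lower in CC043, but 0 without replicate 1 and 1 without replicate 2. Cadm1, a cell adhesion molecule, was at 17.3 and 21.5 (others 1.45 to 225.9, median 56.2; -1.31 ± 0.46), Adgrd1, an adhesion receptor, at 2.70 and 4.10 (median 6.51; -0.79 ± 0.19) and Dock9, an activator of Cdc42, at 3.11 and 3.32 (median 5.86; -0.77 ± 0.22). B4galnt3, a glycosyltransferase, was at 2.79 and 5.23 (median 8.18; -0.83 ± 0.42) and was not called. None of the 4 was called against the nearby-numbered libraries.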

How the data were processed

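Total RNA of 96 cultured osteoblast samples was measured as TPM, deposited by the authors in 1 table whose columns each sum to 1000000. Per the submitters' processing notes, mm9 and Bowtie were used, without versions, and the quantification tool was not given in the sources used here. Of 94545 transcripts, 91225 matched GENCODE M21 (GRCm38) identifiers and were summed per gene, with names and gene order only taken from that build. The 2 runs of the nearby-numbered CC030 sample were averaged. Each library was scaled by a trimmed mean of log ratios (factors for CC043 1.04, others 0.790 to 1.25). Genes with at least 0.5 TPM in 2 libraries were tested on log2(scaled TPM + 0.5), which understates changes of low genes, with limma 3.58.1 in R 4.3.3 (trend, residual df 53, checked on simulated data), adjusting by Benjamini-Hochberg over 39 strains and all genes together. The contrasts with nearby-numbered libraries were adjusted together with these.

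Members, lists and tests were chosen with earlier results of these data known. Genes are named by rule: the 12 largest called protein-coding differences in each direction at 5 scaled TPM, the 8 largest gaps to the next strain, genes at or under 0.1 in both CC043 libraries with a median strain mean of at least 1 elsewhere, list members and the genes the study named. The lists of the amino acid response, ERK feedback, ribosome biogenesis, O-GlcNAc, histones and semaphorins, the references within 5 numbers, and the 12 genes in each direction called against both references were chosen after seeing the data. Shared sequence means at least 25% of 50-base stretches found in another gene. Some members of these lists are counted but not reported by name here.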

Additional observations from a re-analysis of the deposited data

How the results depend on the processing

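Main counts were 2345 genes higher and 2261 lower. They fell with the reference of title numbers within 20 (1395 higher), with that within 5 (846 higher, 1333 lower) and with the CC030 library also left out of it (617 and 727). The references within 5, with and without CC030, were added after seeing the data and have fewer libraries. Leaving out 1 CC043 replicate gave 997 to 1606 higher and 1072 to 1408 lower. Rescaling TPM over protein-coding genes moved the split of calls to 63.5% higher (2999 and 1727), beside 50.9%, and the median of all genes from -0.03 to 0.03. Without scaling 57.1% of calls were higher. The other pseudocounts, filters, variance models and references left both counts within 1.5 times. The named genes include the 12 in each direction chosen as called against both references. By that choice they kept direction and call against the libraries numbered within 5, so their result there is no check. Of 1020 values for 51 named genes under 20 settings, 952 kept direction and call, 62 lost the call and 6 reversed. The 6 are Txnip (-0.74, and -0.61 without CC030), Chac1 (0.0006 and 0.19) and Adm2 (0.16 and 0.0139) against the libraries numbered within 5. For none of these was the cause tested. No paired analysis was possible because the labels give no replicate numbers. TPM hold no depth, so counting error at low levels is unknown.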

Other observations

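Imprinted genes were measured in 24 cases, of which 4 were called higher and 7 lower in CC043 than in the other strains, beside 14.9% and 14.3% of all genes. Without replicate 1 the counts were 2 and 1, and without replicate 2 they were 1 and 3. Cdkn1c, a growth-restraining inhibitor of cell division, was at 8.16 and 24.8 scaled TPM (median of the other libraries 35.1; log2 difference -1.27 ± 0.35). Mest differed by -1.53, Igf2 (294 and 228, median 307) and H19 (1659 and 1233, median 1436) were not called, and 1 of the 24 was called against the nearby-numbered libraries.

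Of 33 redox and detoxification genes, 3 were called higher and 6 lower (median -0.10), near the shares over all genes (14.9% and 14.3%). With the nearby-numbered libraries as reference 2 were higher and 10 lower (median -0.40), or 0 and 4 without CC030. Nqo1, a quinone reductase that NRF2 induces, was at 10.6 and 12.2 (others up to 11.5, median 6.26; 0.84 ± 0.20), and Txnrd1 differed by 1.28. Hmox1, heme oxygenase, another NRF2 target, was at 50.5 and 45.5 (median 61.4) and was not called (-0.39 ± 0.24).

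Of 62 replication-dependent histone genes, a list made after seeing the data, 1 was called higher and 8 lower, with a median of -0.92, beside 14.9% higher and 14.3% lower over all genes. The number lower was 3 without replicate 1 and 6 without replicate 2. It was 22 when the nearby-numbered libraries were left out of the other strains, and 4 against those libraries (median -0.23). Many of these genes are near-copies of each other, so the value of a single member is uncertain.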
